A study of Mus musculus with 12 samples.

Results

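Differences between the pEx5 and mEx5 lines of N2A cells, a mouse neuroblastoma line, at baseline were measured in the 4 libraries that received the non-targeting siRNA and no doxycycline, of 12 libraries in all. The comparison was defined from the sample titles, as the pair of pEx5 libraries (A and B) against the pair of mEx5 libraries (A and B). Both lines share a Flp-In rtTA3 background and hygromycin selection, and each carried an integrated cDNA of Puf60 with an N-terminal 3xFlag tag and resistance to the Puf60 siRNA, under a promoter that doxycycline switches on. The cDNA held exon 5 of Puf60 in the pEx5 line and lacked it in the mEx5 line, and it was uninduced in these 4 libraries. Cells were transfected at 15 nM siRNA and harvested 48 h later. Each cDNA is represented by 1 line, and the labels do not say whether a line is a clone or a pool, so the cDNA, the line and its selection cannot be told apart. The series calls A and B biological duplicates without naming separate cultures. The p-values below measure only the spread between such duplicates, pooled over the 6 groups of the 12 libraries. The other 8 libraries received the Puf60 siRNA, without doxycycline in the knockdown groups and with doxycycline at 2 µg/ml for 24 h in the induced groups. In the labels of the induced groups, 1 field reads uninduced and the treatment field reads doxycycline, and the latter was used here.

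Puf60, a relative of U2AF, binds pyrimidine-rich RNA and helps the splicing machinery to recognise 3′ splice sites, and its exon 5 is alternatively spliced. Neuroblastoma cells derive from the sympathetic branch of the neural crest. They are known to occupy a noradrenergic state, marked by Dbh and Th, or a mesenchymal state, marked by matrix, contractile and crest genes.

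Exons whose inclusion differed between the lines are shown first, since the splicing results below turn on them. They were read from GENCODE M21 transcripts (GRCm38) and matched to the deposited events by gene, length and at least 1 flanking intron length. Each is written 5′ to 3′ in lower case on the transcribed strand, and no part is set apart in capitals.
Evi5l, 33 nt, chr8:4201934-4201966, plus strand, coding: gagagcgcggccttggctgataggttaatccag
Epb4.1l2 (now Epb41l2), 63 nt, chr10:25493567-25493629, plus strand, coding: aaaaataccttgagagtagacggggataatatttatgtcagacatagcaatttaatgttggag
Epb4.1l2, 147 nt, chr10:25495445-25495591, plus strand, coding: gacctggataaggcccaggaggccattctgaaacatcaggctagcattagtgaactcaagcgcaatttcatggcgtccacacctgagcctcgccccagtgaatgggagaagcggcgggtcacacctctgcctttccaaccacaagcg
Epb4.1l2, 54 nt, chr10:25501578-25501631, plus strand, coding: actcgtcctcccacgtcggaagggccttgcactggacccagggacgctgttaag
Cux1, 111 nt, chr5:136485741-136485851, minus strand, coding: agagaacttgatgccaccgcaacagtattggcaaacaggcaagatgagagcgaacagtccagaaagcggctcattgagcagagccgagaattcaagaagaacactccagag
Mprip, the 30 coding nt of a 66 nt exon at chr11:59772152-59772217, plus strand, after which the annotated reading frame stops within the exon: tccgtaattgagcaggtctcatgggataac

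The 4 control libraries held 26772242 to 41494994 exon-exon junction reads, the mEx5 libraries (26772242 and 32981590) fewer than the pEx5 libraries (41494994 and 36766280). The part of this depth difference in the results was not tested. Replicates were close (Pearson's r of log2 levels 0.997 over 10302 genes in pEx5 and 0.996 over 10352 genes in mEx5, genes not being independent), and they differed by more than counting noise. Of 12 neuroblastoma markers, 10 reached 1 rpkm in each line in the authors' deposited table, among them Phox2a, Hand2 and Chga. Th was below 1 rpkm in both. Of 9 neuron markers 7 reached 1 rpkm in each line, with Nefl and Nefm near 0. Epithelial, immune and endothelial markers stayed below 1 rpkm in both lines. Among 6 fibroblast markers Pdgfra alone reached 1 rpkm, in mEx5, with Col1a1, Col1a2 and Col3a1 at 0.03 rpkm or less. The summed levels of these 6 markers, in CPM (junction reads of a gene scaled to a common library size), were 1.52 to 1.65 in pEx5 and 5.32 to 5.99 in mEx5.

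Puf60 itself differed little between the control lines. Its level in CPM was 322.0 and 296.9 in pEx5 and 302.7 and 304.7 in mEx5, so that the groups overlapped. The log2 difference was 0.03 ± 0.06 (SE), with an adjusted p of 0.799 by limma. Inclusion of exon 5, as percent spliced in (PSI), was 39.1% and 35.8% in pEx5 and 40.8% and 39.2% in mEx5. The groups did not overlap, and the difference was −2.52 points, with an adjusted p of 0.859 by weighted limma. The 95% Clopper-Pearson intervals, which cover counting error only, spanned 33.8% to 41.0% over the pEx5 libraries and 37.2% to 43.1% over the mEx5 libraries. A 3 nt alternative 3′ splice site (2.31 points, adjusted p = 0.738 by limma) and a 2973 nt intron (−2.21 points, adjusted p = 0.598 by limma) of Puf60 were not called either. The groups did not overlap for the site or for the intron. This intron is the whole span between the neighbours of exon 5 and holds that exon, so it is not a separate event. The same exon separates the lines once the cDNAs are induced, with a difference of 82.0 points in the induced libraries.

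Other genes differed widely. On log2 CPM, limma called 2835 of 10363 genes at a Benjamini-Hochberg adjusted p under 0.05 (27.4%), 1453 higher in pEx5 (14.0%) and 1382 lower (13.3%). Scaled by total junction reads in place of the median of ratios, 938 were higher and 1716 lower, so the balance of directions among small differences depends on the scaling. The larger differences were one-sided under both scalings. Of 414 genes called at 2-fold or more (3.99%), 55 were higher in pEx5 (0.531%) and 359 lower (3.46%), and by total reads 49 and 383. Leaving out 1 control library left 1724 to 2134 called genes, with 1818 without pEx5 B, 1724 without mEx5 A and 1778 without mEx5 B, and 385 to 412 at 2-fold. The groups did not overlap for 62.9% of genes.

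Among the 12 genes with the highest ratio in pEx5, a noradrenergic pair stood beside receptors, transporters and a bone transcription factor. Sp7, a transcription factor of osteoblasts, had 6.53 and 6.20 CPM in pEx5 and no read in either mEx5 library. Set against 3 reads per mEx5 library, it was at least 63.0-fold higher (adjusted p = 5.19e-10 by limma). Dbh, which makes noradrenaline from dopamine, stood at 27.3 and 29.4 CPM in pEx5 and 7.74 and 9.22 in mEx5. Its log2 difference was 1.74 ± 0.13 (SE), adjusted p = 8.89e-09 by limma. Th, the rate-limiting enzyme of catecholamine synthesis, was scarce, at 1.43 and 1.80 in pEx5 and 0.558 and 0.242 in mEx5 (log2 1.94 ± 0.41, adjusted p = 0.00137 by limma). The choice of these genes fixed that the groups do not overlap. Ddc, which acts between these enzymes, was not called (−0.14, adjusted p = 0.412 by limma). Htr3a, a subunit of the serotonin-gated channel, had 79.5 and 84.9 in pEx5 and 22.6 and 24.9 in mEx5. It had the highest read support of the 12, with log2 1.79 ± 0.07 and an adjusted p of 4.44e-13 by limma. Slc1a1, a neuronal glutamate transporter, had 103 reads in pEx5 and 2 in mEx5, a depth-scaled ratio of 40.6 with a counting interval of 10.96 to 340. Pcdh15, a protocadherin of hair cells, had 107 reads against 3, a ratio of 28.1 with an interval of 9.37 to 139. The secretin receptor Sctr (log2 2.32), Cyyr1 (1.90) and the ion channel regulator Pirt (1.78) were higher too. Nlrp9b (1.65), Ndufa4l2 (1.63) and the transporter Slc16a12 (1.58) completed the set. From Sctr on, all were below 3 CPM in the control libraries. Cyyr1, Nlrp9b and Slc16a12 were not called without mEx5 B (adjusted p by limma 0.146, 0.0616 and 0.0542).

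The 12 genes with the lowest ratio in pEx5 were led by matrix and contractile genes of mesenchymal cells. Tnc, the matrix glycoprotein tenascin C, had 0.197 and 0.254 CPM in pEx5 and 30.9 and 33.2 in mEx5, a log2 difference of −6.80 ± 0.28 (SE) with an adjusted p of 8.75e-13 by limma. Acta2, the smooth muscle actin, had 0.271 and 0.141 in pEx5 and 8.85 and 10.1 in mEx5 (−5.18 ± 0.27, adjusted p = 2.94e-11 by limma). In both genes the mEx5 libraries lay more than an order of magnitude above the pEx5 libraries. Ahsg, the secreted glycoprotein fetuin A, had 0.197 and 0.254 in pEx5 and 7.10 and 7.67 in mEx5 (−4.69 ± 0.36). Mylk3, a myosin light chain kinase, had 0.172 and 0.113 in pEx5 against 3.27 and 3.75 in mEx5 (−4.12 ± 0.35). D3Bwg0562e had no read in either pEx5 library and 92 in mEx5, at least 19.2-fold lower in pEx5 when 3 reads per pEx5 library are allowed. Single reads were left of the RNA-binding protein gene Igf2bp3 (1 read against 80, a ratio of 101 with a counting interval of 17.7 to 4056) and of the lysosomal protease gene Ctsf (1 against 96, a ratio of 122 with an interval of 21.3 to 4857). Klhl4 (−4.40), E330016A19Rik (−4.53), Espnl (−4.14), Nlrp14 (−4.11) and Wipf1 (−3.94) completed the set, and Wipf1 binds the actin regulator WASP. In both mEx5 control libraries these last genes were between 1.82 and 3.42 CPM, and in the pEx5 controls at 0.148 or less. All 24 genes kept their direction in the knockdown and in the induced libraries.

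**Figure D1:**
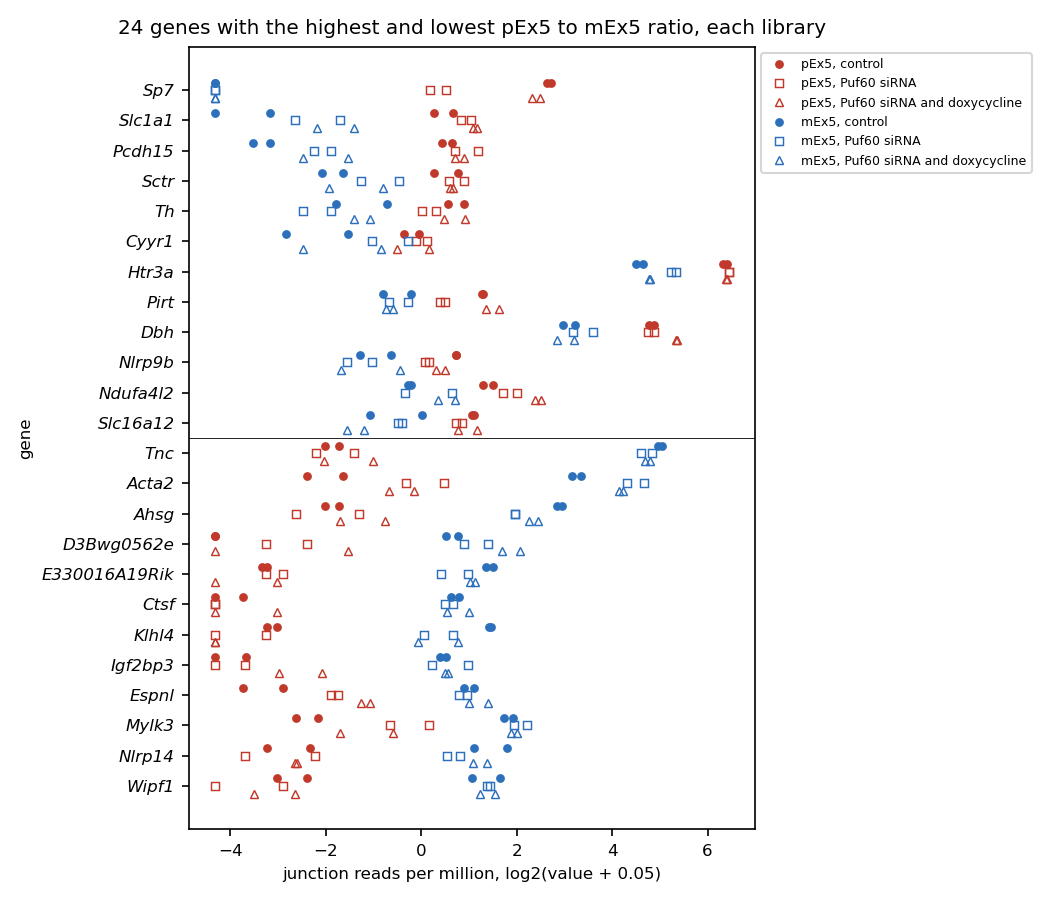
Junction read CPM, as log2(value + 0.05), of the 12 genes with the highest and the 12 with the lowest pEx5 to mEx5 ratio in control libraries, with 1 point for each of the 12 libraries (red pEx5, blue mEx5, filled circles control). The filled red and blue points do not overlap in any row, which the choice of the genes fixed, and the points of the other 8 libraries lie on the same sides without overlap within each condition.

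Genes of noradrenergic identity were higher in pEx5 or not called. Of 17 tested, 9 were higher and none was lower, beside 14.0% higher and 13.3% lower among all genes tested. The median log2 difference was 0.39, beside 0.02 for all genes tested. Ret, the receptor of the GDNF ligands, stood at 704 and 662 CPM in pEx5 and at 307 in each mEx5 library, a log2 difference of 1.15 ± 0.05 (SE, adjusted p = 2.73e-12 by limma). Isl1 (0.60), Chgb (0.52), Tbx2 (0.47), Gata3 (0.46) and Chga (0.17) were called too. With 1 control library left out 6 to 7 of the list were called. Phox2a (−0.02), Hand2 (0.01), Gata2 (0.02), Ddc (−0.14) and Alk (−0.15), which belong to the same identity, were not called. In a bulk sample, fewer cells of a type and less RNA per cell cannot be told apart.

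Genes of the mesenchymal matrix were lower in pEx5, 8 of 10 tested, with 1 higher and a median of −0.73. Among all genes tested 13.3% were lower and 14.0% higher. Sparc, a secreted collagen-binding protein, had 11.7 and 11.9 CPM in pEx5 and 92.2 and 94.3 in mEx5, a log2 difference of −2.97 ± 0.07 (SE, adjusted p = 1.52e-16 by limma). Col6a1 (−2.38) and the PDGF receptor gene Pdgfra (−1.76) followed, and fibrillin Fbn1 (−0.93) and fibronectin Fn1 (−0.53) differed less. The lysyl oxidase relative Loxl2 was higher, by 0.33. Only 10 of 22 listed genes passed the read filter. The fibroblast collagens are among those at or near 0 in both lines, as given above, while the summed fibroblast markers were higher in mEx5, where Pdgfra is the one that reaches 1 rpkm.

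Of 11 contractile genes tested, 8 were lower in pEx5 and none higher, beside 13.3% lower and 14.0% higher among all genes. The median of the list was −0.47. Beside Acta2, the myosin light chain gene Myl9 had 1.53 and 2.06 CPM in pEx5 and 11.6 and 12.3 in mEx5, a log2 difference of −2.71 ± 0.13 (SE, adjusted p = 1.18e-11 by limma). Caldesmon Cald1 (−0.58), calponin Cnn2 (−0.49) and the tropomyosins Tpm1 (−0.44) and Tpm2 (−0.47) were lower by less. Actg2 is uncertain, because its reads can be shared with near-identical actin genes: its difference was −0.64 on junction reads and −4.31 in the authors' deposited table. These genes are known targets of serum response factor, which binds the CArG box. Their promoters were searched on both strands for its strict form, CCWWWWWWGG with W for A or T. A RefSeq promoter (250 bases before to 50 after the start, GRCm38.p6) was at hand for 13 contractile genes. Of these 3 held a CArG box of the strict form, Myl9, Cnn2 and Vcl, which is 23.1% beside 1.81% of 27025 genes. Vinculin, Vcl, was not called (−0.11, adjusted p = 0.137 by limma), and Acta2 had no match to the strict form in this window. Boxes that depart from this form were not searched for. The 250 bases upstream of the start are shown for the called pair, with the CArG box in capitals, beginning 161 bases before the start in Myl9 and 56 bases before it in Cnn2.
Myl9, chr2:156775214-156775463, plus strand: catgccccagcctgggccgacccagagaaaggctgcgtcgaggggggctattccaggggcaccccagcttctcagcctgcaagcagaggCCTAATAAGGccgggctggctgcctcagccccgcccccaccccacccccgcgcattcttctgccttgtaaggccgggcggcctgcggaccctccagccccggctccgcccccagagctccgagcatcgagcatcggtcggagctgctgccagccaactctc
Cnn2, chr10:79988350-79988599, plus strand: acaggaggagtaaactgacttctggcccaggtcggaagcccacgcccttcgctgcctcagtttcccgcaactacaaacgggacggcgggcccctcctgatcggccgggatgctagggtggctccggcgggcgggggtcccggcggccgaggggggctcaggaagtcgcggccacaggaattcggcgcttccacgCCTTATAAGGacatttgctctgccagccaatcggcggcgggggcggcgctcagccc

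Among crest and signalling lists, called genes were mostly lower in pEx5 in those of the neural crest, growth factors and TGF beta, and evenly divided in that of Notch, Wnt and hedgehog, beside 14.0% higher and 13.3% lower among all genes. Of 7 genes of the neural crest and glial lineage tested, 5 were lower and none higher (median −0.56), among them the progenitor filament gene Nes (−1.58), Pax3 (−0.73), Prom1 (−0.66), Sox9 (−0.56) and Erbb3 (−0.55). With pEx5 A, mEx5 A or mEx5 B left out 3 of them were called. The Schwann cell gene Sox10 was listed at 0 rpkm in both lines. Of 16 growth factor receptors and ligands tested, 9 were lower and none higher (median −0.52). Igfbp4, which binds insulin-like growth factors, had 11.6 and 9.95 CPM in pEx5 and 64.2 and 57.6 in mEx5 (log2 −2.49 ± 0.09, adjusted p = 6.87e-14 by limma). The ligands Vegfc (−2.22), Pdgfc (−2.02) and Ptn (−1.25) were lower as well. Of 5 TEAD and YAP genes tested, the coactivator gene Wwtr1 (−1.74) and the target Cyr61 (−1.65) were lower and the other 3 were not called. Of 18 TGF beta and BMP genes tested, 5 were lower and 2 higher, led by Tgfbi (−1.11) and Bambi (−1.09). Of 7 genes of retinoic acid signalling tested, 2 were lower and none higher, the degrading enzyme Cyp26b1 (−2.04) and the receptor Rarg (−1.62). Of 16 Notch, Wnt and hedgehog genes tested, 4 were higher and 4 lower, among them Lef1 (0.59) and Wnt5a (−1.21). Leaving out pEx5 A or mEx5 A left 1 higher in this list, and leaving out mEx5 B left 2 higher and 2 lower. Without pEx5 A, 3 genes of the TGF beta list were lower, and without mEx5 B 1 gene of the retinoic acid list.

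Sterol and fatty acid synthesis had the largest share of genes called higher in pEx5 among the 33 lists. Of 29 tested, 22 were higher and none lower, beside 14.0% and 13.3% of all genes, with a median of 0.38. Insig1, which holds back the sterol-regulated factor SREBP, had 25.3 and 22.0 CPM in pEx5 and 14.6 and 11.8 in mEx5. Its log2 difference was 0.85 ± 0.13 (SE, adjusted p = 4.39e-05 by limma). The desaturase gene Scd2 had 576 and 605 against 330.1 and 328 (0.84 ± 0.07, adjusted p = 4.65e-08 by limma). Lanosterol synthase Lss (0.80), Pmvk (0.70) and Dhcr7 (0.69) were higher too. In the same direction, 20 of the 22 were called in knockdown libraries and 21 in induced libraries.

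Stress and energy genes were higher by less. Their counts read against shares of 14.0% higher and 13.3% lower among all genes. Of 27 genes of the integrated stress response and amino acid metabolism tested, 17 were higher and none lower (median 0.23), with 13 by total scaling. Cth, which makes cysteine, led at 93.7 and 100.3 CPM in pEx5 and 58.4 and 60.7 in mEx5 (log2 0.70 ± 0.06, adjusted p = 4.68e-08 by limma), and Shmt2 (0.42), Pycr1 (0.39) and Aldh18a1 (0.38) followed. In knockdown and induced libraries 9 and 6 of the 17 were called in the same direction. Of 22 glycolysis and hypoxia genes tested, 11 were higher and 2 lower (median 0.20), led by the glucose transporter gene Slc2a3 (0.72), and 7 were higher without mEx5 A. Of 35 nuclear genes of oxidative phosphorylation tested, 12 were higher and 2 lower (median 0.12), led by Ndufs7 (0.47). That count fell to 4 without mEx5 B, 7 without pEx5 B and 7 by total scaling. Of 19 genes of the unfolded protein response tested, 7 were higher and 1 lower, and 2 were higher without either pEx5 B or mEx5 B.

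Among called genes of innate defence, more were lower than higher in pEx5. Of 21 genes of the interferon response and RNA sensors tested, 10 were lower, 3 higher and 8 not called, with a median of −0.27, beside 13.3% lower and 14.0% higher among all genes. Isg15, a ubiquitin-like protein induced by interferon, had 2.07 and 2.06 CPM in pEx5 and 5.95 and 7.19 in mEx5 (log2 −1.63 ± 0.18 SE, adjusted p = 1.08e-06 by limma). The RNA sensor gene Ddx58 (−1.45) and the immunoproteasome genes Psmb8 (−1.33) and Psmb9 (−1.24) were lower, and B2m, the light chain of MHC class I, was lower by 0.53. Stat2 (0.40), H2-K1 (0.22) and Oasl1 (0.81, at about 1 CPM) were the genes that were higher, and H2-K1 can share reads with other class I genes. Without mEx5 B 1 gene of this list was higher. Of 22 genes of the NRF2, glutathione and metallothionein list tested, 7 were lower, 2 higher and 13 not called. The glutathione transferases Gstm1 (−1.79), Gstm2 (−2.05) and Gstm7 (−2.10) led it, and their counts are uncertain because reads can be split among near-identical copies. No gene of this list was higher without pEx5 B or mEx5 A, and 1 was without mEx5 B. Of 12 imprinted genes tested, 5 were lower and 1 higher, and Mest had 352 and 321 CPM in pEx5 against 610.0 and 533 in mEx5 (−0.76 ± 0.08).

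Neuronal lists did not lean one way. Of 19 synaptic vesicle and SNARE genes tested, 6 were higher and 4 lower, with the vesicle protein gene Syn2 at 121 and 106 CPM in pEx5 and 46.8 and 47.1 in mEx5 (log2 1.27 ± 0.06 SE, adjusted p = 1.21e-11 by limma). Of 21 ion channels and neurotransmitter receptors tested, 6 were higher and 6 lower, among them the nicotinic receptor gene Chrna3 (0.69) and the calcium channel gene Cacna1h (−1.53). Of 16 axon guidance genes tested, 4 were higher and 4 lower, including Nrp2 (0.53) and Slit1 (−1.40). Of 14 adhesion genes of the cadherin and immunoglobulin families tested, 3 were higher and 3 lower, with Nfasc lower by 1.18 on the log2 scale. Of 15 neuronal cytoskeleton genes tested, 4 were higher and 3 lower. Gap43 (0.65) and peripherin Prph (0.45) led the higher genes, and Stmn2 (−0.24) was among the lower ones. Of the clustered protocadherins 2 were tested, and the reads under the symbol Pcdha6 were higher (0.38). These genes share their last exons, and Pcdha6 is listed at 0 rpkm in both lines in the authors' deposited table, so the reads cannot be assigned to it. These lists read against shares of 14.0% higher and 13.3% lower among all genes. Their smaller differences rest on single libraries: with 1 control library left out, the higher synaptic genes numbered 3 without mEx5 A and the lower ones 1 without pEx5 B. The higher channel genes numbered 3 without either mEx5 library, and the lower ones 1 without pEx5 B and 2 without mEx5 B. Without mEx5 A 2 guidance genes and no adhesion gene were higher, and 2 cytoskeleton genes were higher without any 1 of the 4 libraries, where 0 to 1 were lower.

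Splicing factor and cell cycle genes were mostly not called, as were 7528 of all 10363 genes tested. Among all genes 14.0% were called higher and 13.3% lower, and the neural splicing regulators lay near these shares, with 12.5% each way. Of 24 SR and hnRNP genes tested, none was called by limma, nor with voom weights, with 1 at an unadjusted p under 0.05. Of 22 U2 and 3′ splice site factors tested, 3 were higher, Sf3a2 (0.34), Sugp1 (0.21) and the branch point helicase gene Ddx46 (0.15), and Snrpb2 was lower (−0.21). By total scaling 1 was higher and 1 lower, and 1 to 2 were higher with a control library left out. Of 24 neural splicing regulators tested, 3 were higher, Celf4 (0.38), Celf3 (0.33) and Nova1 (0.26), and 3 lower, Celf5 (−0.60), Nova2 (−0.44) and Elavl4 (−0.16). The counts of this list ranged from 0 to 2 higher and 0 to 4 lower when 1 control library was left out. Of 37 S phase genes tested, 3 were higher and 2 lower, and by total scaling 2 and 7. Of 31 genes of mitosis 1 was higher and 4 lower, of 21 immediate early genes 1 and 4, of 17 p53 targets and cell cycle inhibitors 3 and 1, and of 20 ribosomal protein genes 4 and 1. These small counts rest on single libraries too. Without mEx5 B 1 S phase gene was higher and 1 lower, no mitosis gene was called in either direction, 2 immediate early genes were lower and no p53 target was higher. Without mEx5 A no mitosis gene was called, without pEx5 A 1 mitosis gene was lower and 1 p53 target higher, and without pEx5 B 1 ribosomal protein gene was higher. Of 3 Hox genes tested none was called by limma, with 1 at an unadjusted p under 0.05. Of 5 schwannian, fibroblast, immune and epithelial genes tested, Pdgfra and Pecam1 (−1.39) were lower.

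**Figure D2:**
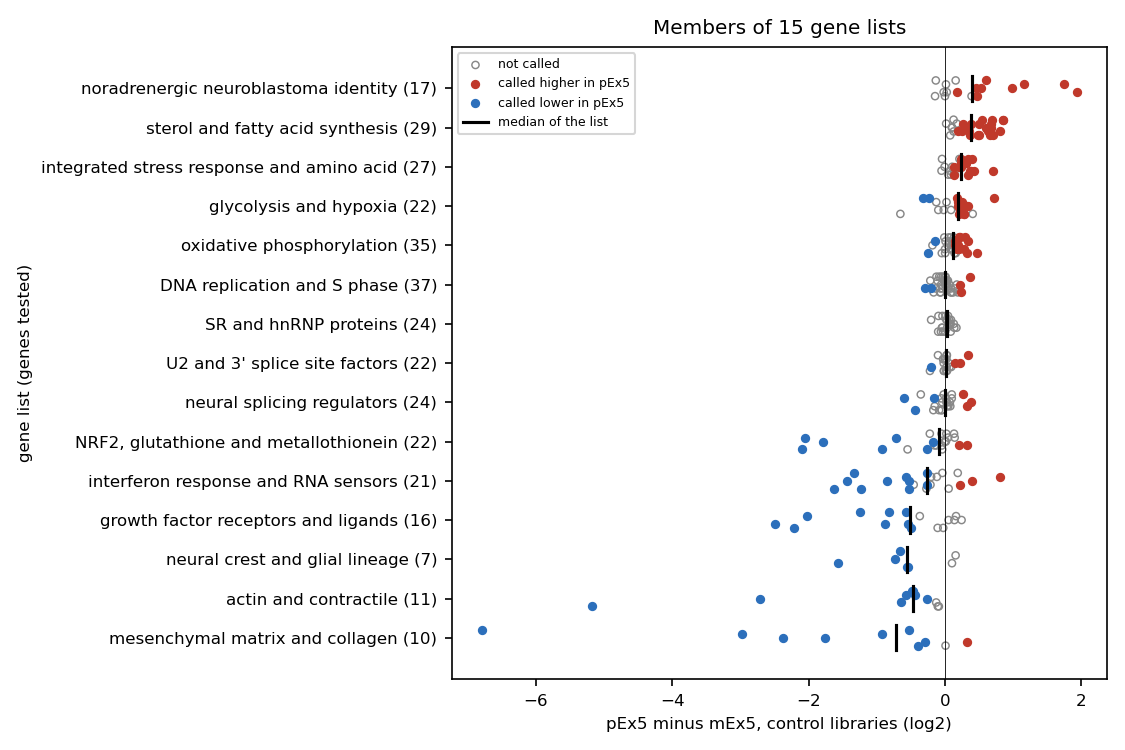
Log2 difference between the control lines for each tested member of 15 gene lists, with filled points for called genes (red higher, blue lower in pEx5), open points for genes that were not called, and a bar at the list's median. The noradrenergic and sterol lists lie to the right, with medians of 0.39 and 0.38, and the matrix list lies farthest to the left, with a median of −0.73.

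The line difference was measured again in the other 8 libraries, which are separate libraries of the same lines. All groups were fitted together with 1 estimate of the spread per gene. The calls in these libraries are therefore not wholly separate from the calls in controls. In the knockdown libraries limma called 27.5% of genes between the lines, and in the induced libraries 37.5%. Of the 2835 genes called in controls, 98.0% had the same sign under knockdown, beside 78.6% of all genes tested, and 68.2% were called there with that sign. After induction 92.3% had the same sign, beside 72.8% of all genes, and 66.5% were called with it. Genes called in the opposite direction numbered 4 under knockdown and 33 after induction. Across 10363 genes, which are not independent replicates, the log2 differences in controls and in knockdown libraries had a Pearson's r of 0.89 (Spearman's rho 0.75), and those in controls and in induced libraries 0.83 (0.64).

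**Figure D3:**
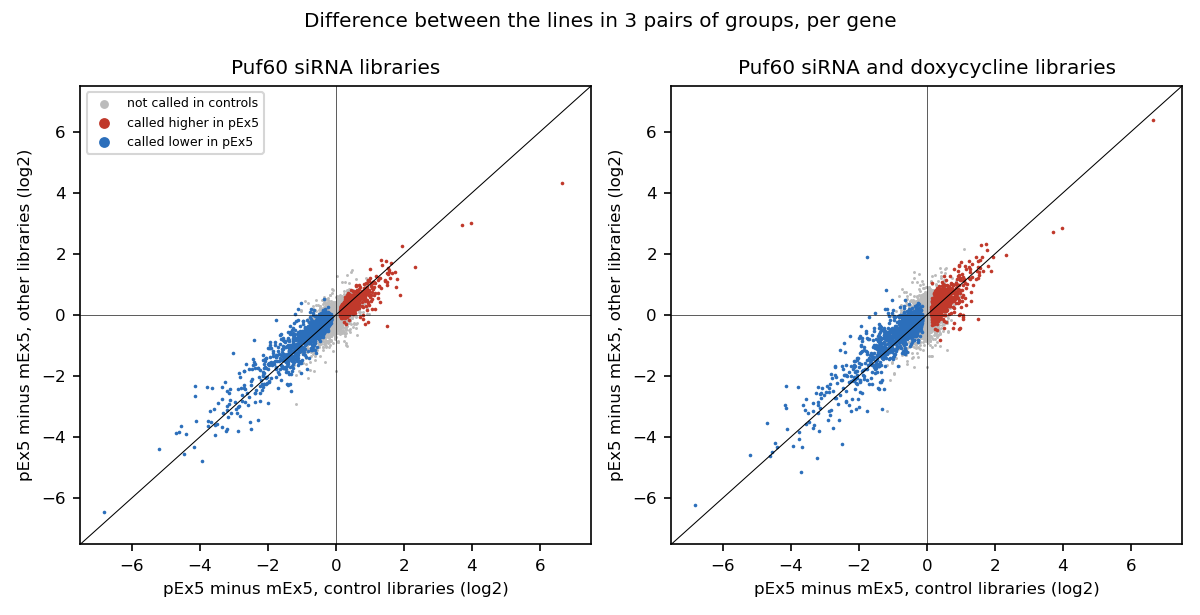
Log2 difference between pEx5 and mEx5 for each of 10363 genes, in control libraries on the x axis and in knockdown (left) or induced (right) libraries on the y axis, with the line of equality. Called genes (red and blue) lie mostly in the lower left and the upper right, 98.0% of them under knockdown and 92.3% after induction.

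The difference between lines changed on knockdown for 3 genes by the interaction term of limma (0.0289% of genes), with 555 at an unadjusted p under 0.05. Cth had 93.7 and 100.3 CPM in pEx5 controls and 107 in each pEx5 knockdown library, against 58.4 and 60.7 and then 111 and 114 in mEx5. Its line difference went from 0.70 to −0.07, an interaction of −0.78 ± 0.09 (SE, adjusted p = 0.000281 by limma). The lines thus differed in Cth in controls and lay within 10 CPM of each other under knockdown. Htr3a went from 1.79 to 1.17 (−0.62 ± 0.10, adjusted p = 0.0219 by limma) and Capn6 from −0.21 to −0.87 (−0.66 ± 0.11, adjusted p = 0.0384 by limma). Cth was called with each control library left out (adjusted p 0.00165 to 0.00858), Htr3a only when mEx5 B was left out, and Capn6 in none of the 4. Capn6 was not called by total scaling either (adjusted p = 0.0817 by limma).

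In splicing, 8 of 22770 events were called between the control lines (0.0351%) at an adjusted p under 0.05 by weighted limma and a difference of at least 10 points. All 8 were exons. None of 8863 introns, 3019 alternative 3′ sites and 2362 alternative 5′ sites was called by limma, where 435, 156 and 138 had an unadjusted p under 0.05. A difference of at least 10 points without overlap of the groups was seen in 1260 events (5.53%), and the authors' deposited calls marked 1185 of 228198 events (0.519%), all 8 among them. Without pEx5 A, pEx5 B or mEx5 B 1 event was called, the exon of Mapt each time, and without mEx5 A 6. An unweighted test over all events with 10 reads also called 8 events, none of them these 8.

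The event with the lowest adjusted p was the 711 nt exon of Mapt, the long exon that gives the big form of tau known from peripheral neurons. Its PSI was 5.58% and 6.08% in pEx5 and 24.7% and 21.2% in mEx5, a difference of −17.1 points with an adjusted p of 0.000498 by limma. The 95% Clopper-Pearson intervals spanned 4.29% to 7.81% over the pEx5 libraries and 18.5% to 28.3% over the mEx5 libraries. The gene's level differed the other way by a small amount, with log2 0.19 ± 0.06 (adjusted p = 0.0191 by limma). The exon was included less in pEx5 in every pair of groups, by 26.4 points under knockdown and 21.5 points after induction.

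Epb4.1l2, a relative of the membrane skeleton protein 4.1, had 3 exons included less in pEx5. The 63 nt exon was at 47.0% and 47.1% in pEx5 and 70.7% and 77.5% in mEx5, the 147 nt exon at 49.96% and 49.8% against 72.2% and 77.6%, and the 54 nt exon at 27.7% and 26.5% against 48.0% and 48.1%. Differences were −27.1, −25.0 and −20.9 points, with adjusted p of 0.0035, 0.00367 and 0.00961 by limma. They belong to 1 gene and are not independent, and all 3 are given after their values were seen, where the rule names 1 exon per gene. The 63 and 147 nt exons are adjacent in the annotated transcript. The 33 nt exon of Evi5l, a Rab GTPase-activating protein, had the widest gap, with 19.4% and 20.0% in pEx5 and 55.6% and 53.9% in mEx5 (−35.0 points, adjusted p = 0.00345 by limma), from 169 to 236 reads per library. The 66 nt exon of Mprip, which targets myosin phosphatase to actin, was at 58.2% and 53.2% against 71.1% and 74.3% (−17.0 points, adjusted p = 0.0311 by limma). In all 5 the pEx5 libraries lay below the mEx5 libraries.

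Inclusion was higher in pEx5 for 2 exons. The 111 nt exon of the homeobox gene Cux1 was at 93.1% and 95.5% in pEx5 and 74.0% and 77.2% in mEx5 (18.6 points, adjusted p = 0.00367 by limma). The 198 nt exon of Hp1bp3, a chromatin protein gene, was at 90.4% in both pEx5 libraries and 78.8% in both mEx5 libraries (11.6 points, adjusted p = 0.00345 by limma). Its annotated start codon lies in this exon, which holds 96 coding nt. The 8 exons had lengths divisible by 3, as had 44.4% of the 8526 exons tested. All 8 had the same sign in knockdown and in induced libraries, beside 55.1% and 53.9% among all events. The difference was at least 10 points with that sign for 7 and 8 of them, beside 5.15% and 9.03% of all events. Under knockdown only the exons of Mapt and Cux1 also had an adjusted p under 0.05 by limma (0.000217 and 0.0412). The other called exons had an adjusted p of 0.0579 to 0.176 by limma there and were not called. After induction only the 63 nt exon of Epb4.1l2 was not called (adjusted p = 0.102 by limma). Of the 1252 other events with a gap of at least 10 points and no overlap in controls, 59.98% and 57.2% had the same sign. No event was called for the interaction of line with knockdown by limma, with 1259 at an unadjusted p under 0.05.

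**Figure D4:**
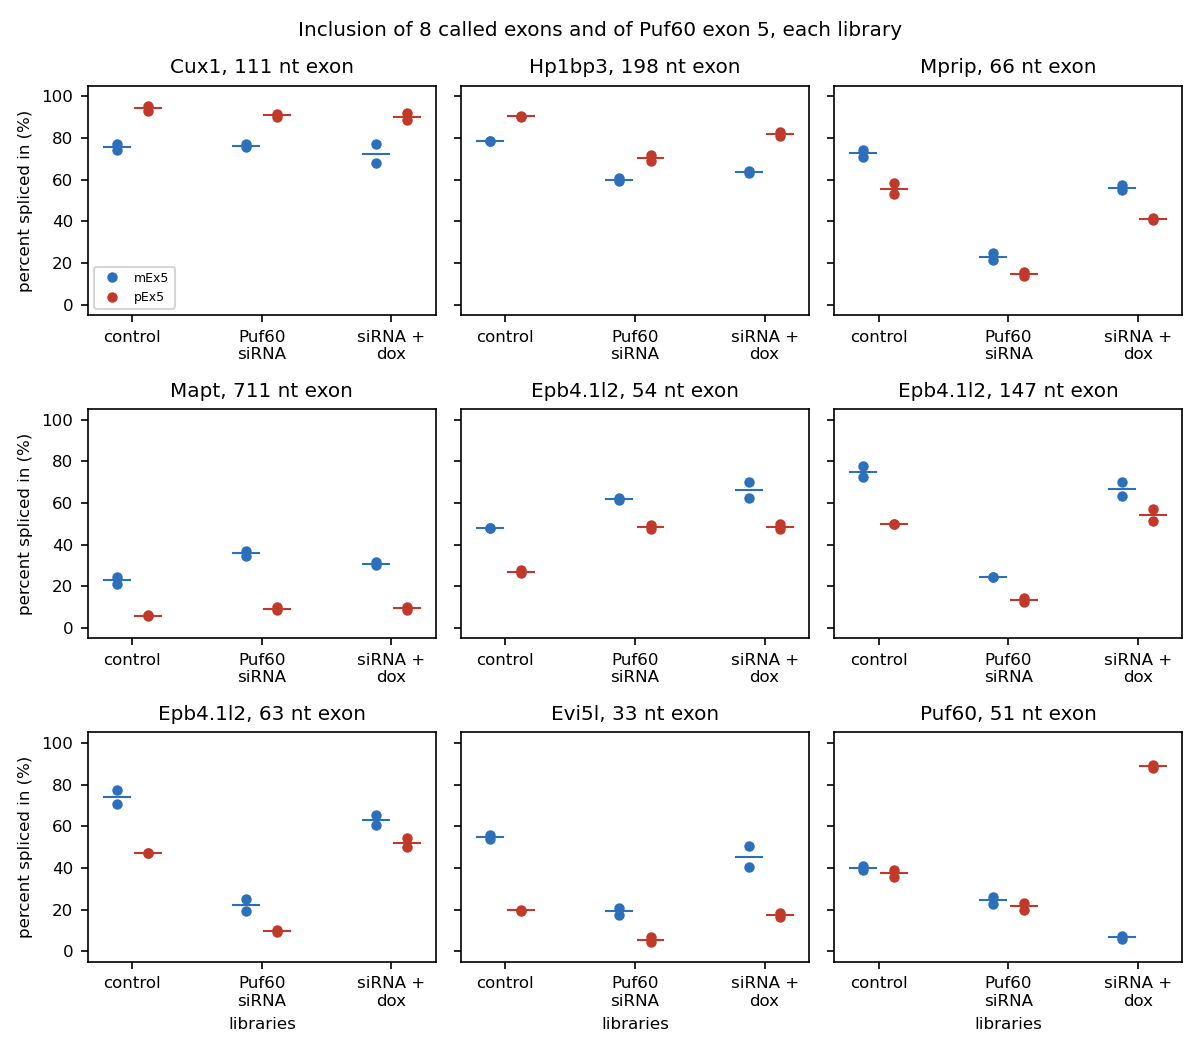
Percent spliced in (%) of the 8 called exons and of Puf60 exon 5 in each of the 12 libraries (blue mEx5, red pEx5, bars at group means). In controls the exon of Evi5l shows the widest gap, 35.0 points, while Puf60 exon 5 differs by 2.52 points in controls and by 82.0 points after induction.

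The differences were not spread evenly over chromosomes. On chromosomes 10, 6 and 18 the median log2 difference of all tested genes was 0.12, 0.12 and 0.15, and 33.6%, 32.7% and 34.3% of their genes were called higher in pEx5, beside 14.0% of all genes. On chromosomes 2, 1 and X it was −0.12, −0.12 and −0.06, and 28.0%, 31.8% and 21.6% were called lower, beside 13.3% of all genes. For chromosomes 10, 6 and 18 every pairing of a pEx5 with an mEx5 control library gave a median of at least 0.107, and for chromosomes 2 and 1 the highest pair was at −0.108. The same chromosomes lay at the ends in the knockdown libraries (0.10, 0.10 and 0.13 against −0.12, −0.12 and −0.07) and in the induced libraries (0.09, 0.11 and 0.11 against −0.14, −0.15 and −0.07). The authors' deposited rpkm gave 0.15, 0.15 and 0.16 against −0.10, −0.07 and −0.03 on log2(rpkm + 0.1). DNA copy number was not measured in these files.

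**Figure D5:**
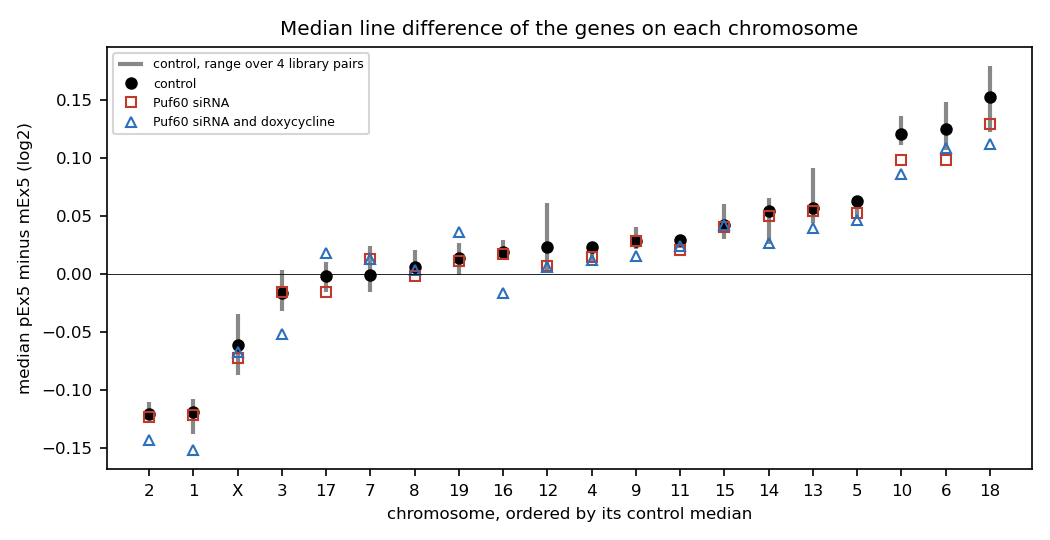
Median log2 difference between pEx5 and mEx5 over the tested genes of each chromosome, in control (black, grey bar for the range over the 4 library pairs), knockdown (squares) and induced libraries (triangles). Chromosomes 2 and 1 lie lowest, at −0.12 in controls, and chromosomes 10, 6 and 18 lie highest, at 0.12 to 0.15, in all 3 pairs of groups.

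Along chromosomes, the medians of 9883 windows of 25 neighbouring tested genes had a 1st percentile of −0.26 and a 99th percentile of 0.24. The 3 highest separate windows were chromosome 10 from 2310011J03Rik to Gadd45b (median 0.34, 16 genes higher and none lower), chromosome 10 from Ckap4 to Scyl2 (0.32, 18 higher and 1 lower) and chromosome 6 from Mpp6 to Ppm1k (0.31, 12 and 2). The 3 lowest were chromosome 2 from Nr1h3 to Ext2 (−0.35, none higher and 15 lower), chromosome 1 from Efcab2 to Dusp10 (−0.32, none and 20) and chromosome 1 from Tomm40l to Aim2 (−0.31, none and 21). All 6 windows kept their sign in knockdown and induced libraries. The median transcript GC content of these windows ranged from 45.1% to 59.2%, beside 49.96% for all genes. Over 5 equal groups of genes by GC content, which 90.03% of genes had, the median difference in controls ranged from −0.0036 to 0.03 with no steady trend. The share called lower in controls went up with GC content at each step, from 10.9% to 16.8%. In the induced libraries the median difference went up at each step, from −0.06 to 0.09, and the part of GC content in the results was not tested.

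The authors' deposited table tested 18600 genes between the control lines and gave 4495 (24.2%) at an FDR under 0.05, 2264 higher in pEx5 and 2231 lower. At 2-fold or more, 129 were higher (0.694%) and 747 lower (4.02%) in the authors' deposited table. Of the 2593 genes called on junction reads that have a value there, 2401 had the same sign and an FDR under 0.05, from the same libraries. Beyond genes tested on junction reads, Hs3st2, a heparan sulfate sulfotransferase gene, was listed at 0 rpkm in pEx5 and 2.07 in mEx5 in the authors' deposited table, and at 0 against 1.24 under knockdown and 1.03 after induction. The DNA sensor gene Mb21d1 was at 0.07 and 1.58 rpkm (log2 −4.51), the growth-restricting imprinted gene Phlda2 at 0.21 and 3.75 (−5.26), Popdc2 at 0.33 and 4.13 (−4.06) and Drd at 0.09 and 2.48 (−4.50) in the authors' deposited table. The gene model RP23-289L17.1 was listed at 0 in pEx5 and at 3 rpkm in mEx5 there. All 6 of these kept their direction in the other libraries. Of the 6 highest, RP23-313D12.3 (1.31 rpkm against 0), AC149085.5 (1.20 against 0.10) and RP23-10H9.2 (1.54 against 0.22) kept their direction in the authors' deposited table. RP23-478I8.1, at 17.3 against 0 in controls, was at 0 in pEx5 and 9.45 in mEx5 under knockdown, and the small RNA genes Rnu3a (log2 2.56 in controls, −0.45 under knockdown) and Gm26413 (2.47 and 0.23) were not steady either.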

How the data were processed

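RNA of 12 libraries (6 groups of 2) was analysed, 4 of them control libraries. The authors deposited a splicing table in the format of vast-tools, as its event names show, with percent spliced in for each event and library, and a quality text that holds inclusion, exclusion and junction reads. Its aligner version and genome assembly are not given in the sources used here, and its coordinates differ from mm10 for all the named exons but that of Evi5l, so exon positions above are those of GENCODE M21. The deposited expression table gives rpkm per gene and group, log2 fold changes and p-values with FDR, made by the authors with Salmon 0.14.1, edgeR and mm10, per the submitters' processing notes. A further deposited table gives the authors' group score and True or False call for each event, with no stated criterion.

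Exon-exon junction reads of all introns of a gene were summed from the quality text. The deposited reads gave the deposited percent within 0.02 points for 99.46% of values with at least 10 reads. Levels are log2 CPM, scaled by the median of ratios, with a prior count of 2, keeping genes whose mean over the 12 libraries was 20 reads or more. limma 3.58.1 (R 4.3.3) was fitted to all 6 groups at once with a trended prior, and contrasts were adjusted by Benjamini-Hochberg. A called gene has an adjusted p under 0.05, and a called event also differs by at least 10 points. Splicing was tested in limma on log2 of inclusion over exclusion reads (pseudocount 0.5), weighted by reads with a variance floor of 0.01, over events with at least 10 reads in every library and a mean PSI of 5 to 95. Both fits were also run on simulated data with known changes, and the outcome is not reported or used here. A bound against a group without reads uses 3 reads per library. A gene's junction reads can move with its splicing.

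Genes were named by rule: the 12 highest and 12 lowest ratios among called genes of at least 2-fold without overlap, the largest called members of 33 gene lists, up to 8 called events per direction, the 6 highest and 6 lowest genes of the authors' table among those not tested on junction reads, and the 3 highest and lowest windows. Some named items are not reported here. The comparison, lists and rules were chosen with earlier results of these data known. Scaling, filters, prior, weights, read minimum, the samples in the fit, a replicate block and leaving out each library were varied.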

Additional observations from a re-analysis of the deposited data

Results flagged for a closer look

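The difference between the lines changed on Puf60 knockdown, by a test of the change itself, for Cth (log2 change −0.78), Capn6 (−0.66) and Htr3a (−0.62). Capn6 was not called by total scaling (adjusted p = 0.0817 by limma) or with any 1 control library left out, and Htr3a was called only without mEx5 B among these. The Cth libraries lay on the opposite side without overlap under knockdown, but the line difference there, −0.0728 after 0.70 in controls, was not called (adjusted p = 0.41 by limma). Of the genes that lay on the opposite side after induction without overlap in either pair of groups, 3 are given here. For these the change was not tested. Cyp2c65, a cytochrome gene singled out with Slc22a18 after the values were seen, went from −1.74 in controls to 1.90, at under 2 CPM in all 8 of these libraries. Slc22a18, an imprinted transporter gene, went from −1.18 to 0.83, and Ero1l, an oxidase of protein folding, from 0.28 to −0.12 (adjusted p = 0.109 by limma). Of the genes called in controls, 33 were called in the opposite direction after induction without overlap in either pair of groups. Cyp2c65 and Slc22a18 are among them.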

How the results depend on the processing

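Depth limits the genes with few reads: at 2-fold, a mean of at least 100 reads left 202 genes (31 higher, 171 lower), and a mean of 1 read gave 589. Called genes numbered 1724 to 2134 and 2-fold genes 385 to 412 when 1 control library was left out, with the lone library assumed to vary like the other groups. Called events numbered 1 to 6 in those fits, 15 with a pseudocount of 1 read (the 8 among them) and 4 with a variance floor of 0.05 (3 of the 8). Genes with an interaction numbered 1 to 2 without a control library. Puf60 had a log2 difference of −0.0216 by total scaling and −0.0321 to 0.0852 with a library left out, not called in any. Only 2-fold genes kept their sign in 99.03% under knockdown and 97.1% after induction. The range of chromosome medians was 0.27, or 0.25 on the authors' rpkm, and 0.26 to 0.29 with a library left out. The median of the adhesion list (0.11) went to −0.0138 without pEx5 A and −0.0587 without mEx5 B, and to 0.145 at most. For these changes the cause was not tested. Of 134 named genes 89 kept their call under every alternative that tested them. The letters A and B do not pair the samples (r of A minus B between the control groups 0.06, and −0.13 to 0.16 over 15 pairs of groups), and a replicate block gave 2803 genes, 412 at 2-fold, 8 events and 3 interaction genes. The alternatives for the interaction, Puf60 and the list medians were chosen after seeing the data. The authors' table gave 3233 genes at an FDR under 0.01.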
